A study of Mus musculus with 30 samples.

Results

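Transcripts of 10 feedback inhibitors of the RAS-ERK pathway were followed in AML12 hepatocytes after knockdown of FoxK1, FoxK2 or both, with and without insulin. They are the MAP kinase phosphatases Dusp1, Dusp4, Dusp5, Dusp6 and Dusp7, the Sprouty genes Spry1, Spry2 and Spry4, and the Sprouty-related genes Spred1 and Spred2. The 10 genes were chosen by name as known inhibitors of the pathway, and were found by their Ensembl identifiers among 49089 genes in the count tables. All 10 were among the 11368 genes with enough reads to be tested.

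AML12 is an established line of hepatocytes from a mouse transgenic for human TGF-alpha, a ligand of the EGF receptor, which itself signals through ERK. Cells had received siRNA by lipid transfection, against FoxK1 (FoxK1 KD), against FoxK2 (FoxK2 KD), against both (DKD), or as Control. All cells were kept without serum overnight. They were then left without insulin (basal) or given 100 nM insulin for 6 h. The study describes the basal cells as mock-treated, while the labels give no treatment at 0 min. If the labels hold, 6 h more in culture cannot be told apart from insulin. Each of the 8 groups held 4 samples, except Control and DKD cells after insulin with 3 each, 30 in all. The labels do not say whether replicates were separate cultures, so that p-values measure the spread between these samples, which may be technical. Levels are given as CPM, the usual scaling of a read count by the size of its library. Part of the targeted transcript remained. At basal, Foxk1 averaged 81.4 ± 10.4 CPM (SD, n = 4) in Control cells, against 36.8 ± 6.43 after FoxK1 KD and 46.5 ± 3.43 after DKD. Foxk2 averaged 140.2 ± 8.25 CPM in Control, 47.3 ± 3.46 in FoxK2 KD and 50.2 ± 5.69 in DKD cells. Foxk2 was also lower in FoxK1 KD than in Control cells (log2 fold change -0.26, edgeR adjusted p = 0.0487).

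The members act at successive levels of the same pathway. Receptors for insulin and growth factors switch on RAS, which drives the kinases RAF, MEK and ERK, and active ERK induces genes whose products shut the pathway down again. DUSP proteins remove phosphate from ERK and related kinases, Sprouty proteins interfere between receptors and RAF, and Spred proteins bring the RAS inhibitor neurofibromin to the membrane. Because ERK itself induces many of them, their transcripts are widely used as a readout of ERK output. Protein phosphorylation was not measured in these samples.

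Insulin stimulation of Control cells raised the transcripts of Dusp5, Dusp6 and Spred2 and lowered that of Dusp4. With the Control groups fitted alone none of these changes passed. Of all tested genes 12.4% rose and 13.1% fell. Dusp4 fell after insulin in all 4 genotypes. In DKD cells none of the 9 members other than Spry4, left out for a reason given below, rose after insulin. Of all genes only 8.31% rose there. At basal DKD cells had more Dusp5, Dusp6 and Dusp7 and less Dusp4 transcript than Control cells, where 10.3% of all genes were higher and 10.8% lower. Of these 4 basal differences only that of Dusp4 passed with GC content and length taken out, where the Dusp6 estimate stayed at 0.20. With the groups fitted alone none of the 4 passed. The difference in insulin response between DKD and Control cells itself passed the threshold for none of the 10, with Dusp5 and Spred2 the nearest to it.

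Before the values, the stretch of promoter sequence in which a searched motif occurred is shown for 2 members. Promoters from RefSeq (GRCm38.p6) were matched for 8 of the 10, not Dusp4 and Spry4, the 250 bases before the transcription start being searched on both strands. TAAACA and TAAATA, core letters bound by forkhead factors such as FoxK1 and FoxK2, occurred in 0 of the 8, against 12% and 12.7% of all 32851 promoters listed. CCGGAA, a core of the sites of ERK-regulated ETS factors, also occurred in 0 of the 8, against 12% of all promoters. TGACGTCA, the cAMP response element, was found in Dusp1 alone and in 1.55% of all promoters. The CArG box, the site of the serum response factor, was searched for after the sequences had been seen. It was found in Dusp5 alone and in 1.47% of all promoters. Dusp5 holds 2 adjoining CArG boxes, which begin 82 and 72 bases before the start, and the Dusp1 element begins 143 bases before it. A match in letters describes the sequence and says nothing of binding. Each sequence runs from 5′ to 3′ in the direction of the gene, with the motif in capitals. It stops where an exon of the gene begins in GENCODE M21, which removed the last 47 bases for Dusp1 and the last 36 for Dusp5. The Dusp1 gene in GENCODE M21 reaches further upstream, to position 26562128, so that its stretch lies inside the gene. Both are GRCm38 positions, on the minus strand of chromosome 17 (chr17:26508520-26508722) and the plus strand of chromosome 19 (chr19:53528895-53529108).
Dusp1: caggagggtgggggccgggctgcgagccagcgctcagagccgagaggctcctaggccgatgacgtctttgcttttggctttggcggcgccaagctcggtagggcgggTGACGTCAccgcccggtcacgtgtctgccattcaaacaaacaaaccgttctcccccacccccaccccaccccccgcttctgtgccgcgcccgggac
Dusp5: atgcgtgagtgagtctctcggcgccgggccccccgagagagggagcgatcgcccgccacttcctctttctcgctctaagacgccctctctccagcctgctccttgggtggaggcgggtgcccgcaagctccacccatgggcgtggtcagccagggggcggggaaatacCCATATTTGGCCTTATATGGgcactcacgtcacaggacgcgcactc

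Sequencing depth was modest, from 2141460 to 5668270 counted reads per sample. All 42 pairs of samples within groups differed by more than sampling noise (smallest chi-square per degree of freedom 1.75). Control basal replicate 1 stood apart from its group, with a mean correlation of 0.97 with the other 3 samples, and calls that change without it are named with the results. The 12 basal samples of Control, FoxK1 KD and FoxK2 KD cells also stood apart in some genes from the other 18, DKD basal samples included. In them 52 of the 11368 tested genes, 10 of them pseudogenes, were lower than in every other sample and 83 were higher, none of them a member. Other divisions of the samples were not counted for comparison. No label gives a reason, and the split cannot be told apart from the basal comparison of DKD with Control cells, from insulin in cells other than DKD, or from the DKD difference of insulin responses. Of 8 hepatocyte markers 6 were above 1 CPM in every sample, among them Hnf4a (89.6 to 152 CPM), Krt8 (433 to 983) and Krt18 (812 to 1670). Albumin (Alb) was low at 2.5 to 65.2 CPM, and Apoa1 (0 to 2.82) and Apoe (0.284 to 4.45) were near 0. Of 4 biliary markers 3, all but Epcam, were above 1 CPM in every sample, with Krt7 at 11 to 38.9, Krt19 at 323 to 753 and Sox9 at 168 to 296 CPM. Stellate, endothelial and leukocyte marker lists summed to at most 4.43 CPM. As these were whole cultures, fewer expressing cells and less RNA per cell cannot be told apart.

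Dusp6 was the most abundant member per length of transcript. Averaged over all samples it reached 58.6 CPM per kilobase of exon, followed by Dusp4 (37.9), Spred1 (18.8), Dusp7 (11.7), Spry1 (8.64), Dusp1 (7.51), Spred2 (5.96), Spry2 (5.34), Dusp5 (1.44) and Spry4 (0.354). The last 2 were barely covered, with 2 to 25 reads per sample for Dusp5 and 0 to 12 for Spry4. Spry4 reached the required 2.73 CPM (on plain totals) in only 4 samples, all of them insulin-stimulated, while 9 basal and 12 insulin samples did so for Dusp5. Spry4 was therefore tested only because it was high after insulin, and its changes with insulin are given as values and left out of the counts and medians for insulin, which cover the other 9. The positions in GRCm38 and the level of each of the 10 are given with its results, and the plot of CPM by sample shows them all.

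**Figure D1:**
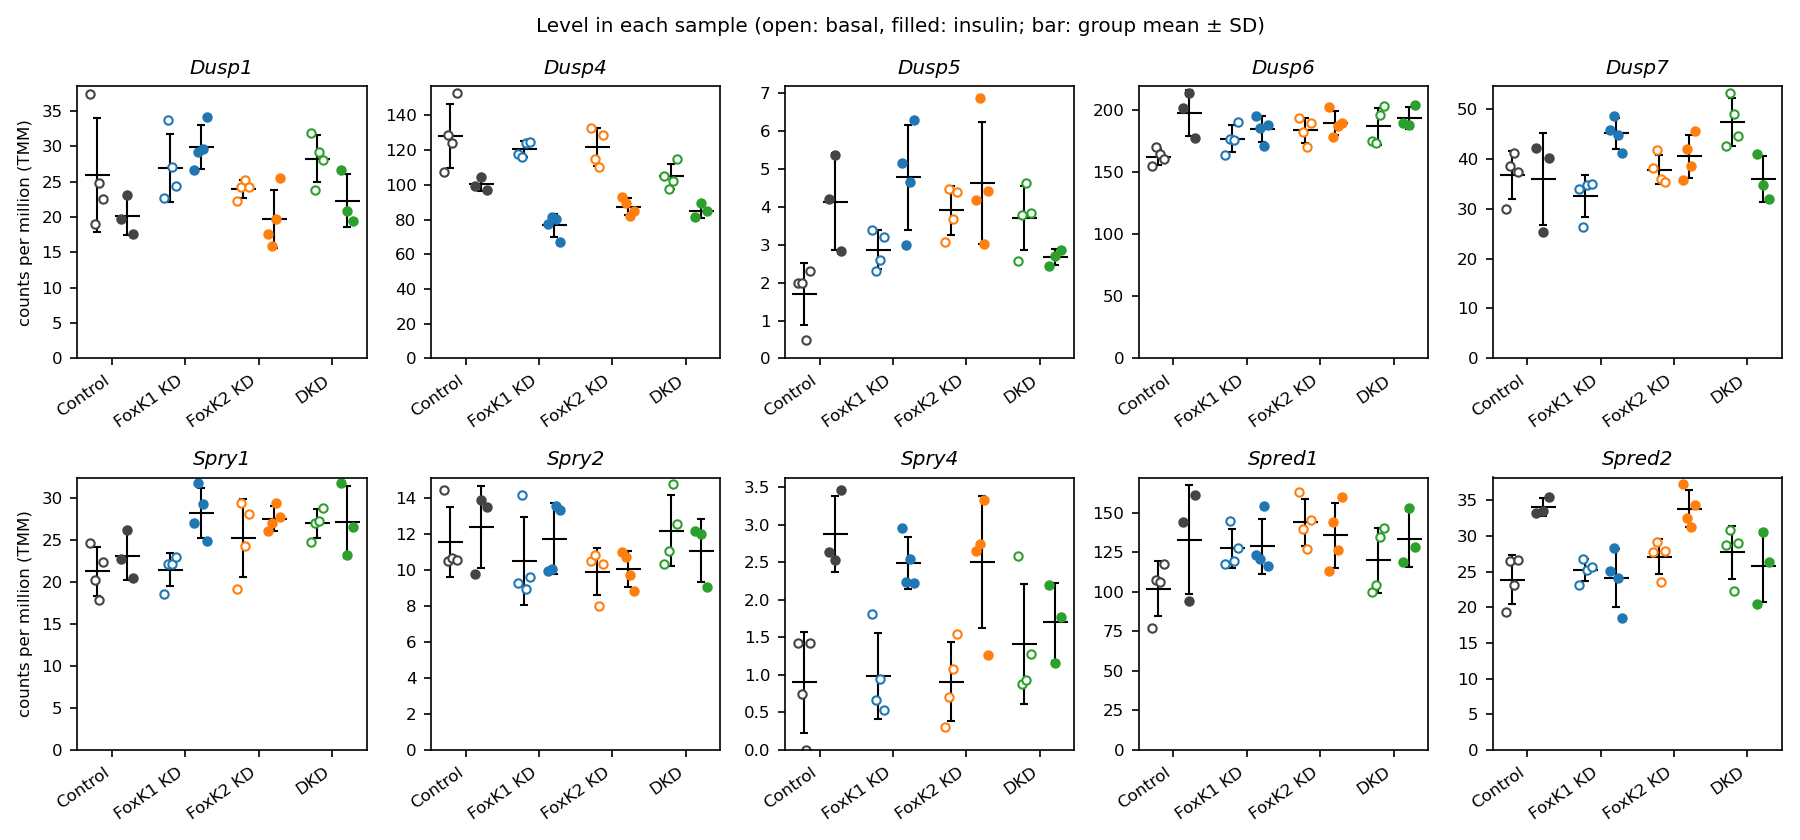
Level of each of the 10 transcripts in each sample (vertical axis, CPM on TMM-normalized library sizes, starting at 0) in the 4 genotypes, at basal (open circles) and after insulin (filled circles), with group mean ± SD. The 3 or 4 insulin samples of Dusp4 lie below all basal samples of the same genotype in all 4 genotypes, and Dusp5 and Spry4 stay at or under 6.88 CPM throughout.

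Which inhibitors respond to insulin was first asked in Control cells. At an adjusted p below 0.05 in edgeR's quasi-likelihood test (Benjamini-Hochberg adjustment over all genes), 3 of the 9 rose and 1 fell, where 12.4% of all tested genes rose and 13.1% fell. The median log2 fold change of the 9 was 0.12, against -0.01 over all tested genes. Of the nuclear phosphatases, Dusp5 rose and Dusp4 fell. Of the cytoplasmic ones, Dusp6 rose. Spred2 rose, and Dusp1, Dusp7, Spry1, Spry2 and Spred1 did not pass. Dusp5 and Spry4 had been named by the study from these same samples, so that their changes are not independent evidence.

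Dusp5, a nuclear phosphatase specific for ERK, lies on chromosome 19 (53529109 to 53542431, plus strand; ENSMUSG00000034765.6). In Control cells it stood at 1.99, 2.00, 0.496 and 2.32 CPM at basal and at 4.22, 5.37 and 2.83 CPM after insulin. Every insulin sample was above every basal sample, on 2 to 17 reads each. The log2 fold change was 1.23 (SE 0.35, edgeR adjusted p = 0.008). Without Control insulin replicate 2 it was 1.04 (adjusted p = 0.065), with the Control groups fitted alone the adjusted p was 0.0781, and without Control basal replicate 1 the call stood. In FoxK1 KD cells Dusp5 was at 3.39, 2.31, 2.59 and 3.21 CPM at basal and at 5.17, 2.99, 4.66 and 6.31 CPM after insulin. In FoxK2 KD cells it was at 3.09, 4.47, 3.67 and 4.40 CPM at basal and at 4.19, 6.88, 3.03 and 4.41 CPM after insulin. The samples overlapped in both, with log2 fold changes of 0.71 (SE 0.31, adjusted p = 0.073) in FoxK1 KD and 0.23 (SE 0.27, adjusted p = 0.56) in FoxK2 KD cells. Without FoxK1 KD insulin replicate 2 the former was 0.88 (adjusted p = 0.039). In DKD cells the basal samples, at 2.58, 3.78, 4.63 and 3.85 CPM, overlapped the insulin samples at 2.44, 2.71 and 2.87 CPM. Here the log2 fold change was -0.44 (SE 0.34, adjusted p = 0.423).

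Dusp4, another nuclear phosphatase of ERK and JNK and the second most abundant member, lies on chromosome 8 (34807297 to 34819894, plus strand; ENSMUSG00000031530.6). In Control cells it went from 107.5, 128.5, 124.0 and 152.7 CPM at basal to 99.4, 104.6 and 96.8 CPM after insulin. In FoxK1 KD cells it went from 117.7, 115.9, 124.4 and 125.0 CPM to 77.6, 81.8, 80.4 and 66.8 CPM. In both, all insulin samples were below all basal samples. FoxK2 KD cells had 133.0, 115.1, 110.4 and 128.8 CPM at basal and 93.3, 89.4, 82.2 and 85.0 CPM after insulin. DKD cells had 105.1, 97.7, 102.3 and 114.8 CPM at basal and 81.5, 89.4 and 84.7 CPM after insulin. Again the samples did not overlap. The log2 fold change was -0.36 (SE 0.10, edgeR adjusted p = 0.0047) in Control, -0.66 (SE 0.09, adjusted p = 1.49e-06) in FoxK1 KD, -0.47 (SE 0.09, adjusted p = 0.0001) in FoxK2 KD and -0.31 (SE 0.10, adjusted p = 0.028) in DKD cells. The calls in FoxK1 KD and FoxK2 KD cells stood in all 7 alternative fits and without any 1 library, and the one in Control cells without any 1 library. Fitting the Control groups alone gave -0.35 (adjusted p = 0.114). In DKD cells the call was lost without DKD basal replicate 1 or 4 or DKD insulin replicate 1 or 3 (adjusted p from 0.052 to 0.116), with the loosest filter, with a replicate block and with GC content and length taken out (0.054 to 0.165).

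Dusp1, a nuclear phosphatase of JNK, p38 and ERK and a typical early response gene, lies on chromosome 17 (26505590 to 26562128, minus strand; ENSMUSG00000024190.6). Its group means ran from 19.7 ± 4.17 CPM (SD, n = 4) in FoxK2 KD cells after insulin to 29.9 ± 3.14 (n = 4) in FoxK1 KD cells after insulin. Each group in this order overlapped the next. Insulin gave log2 fold changes of -0.35 (SE 0.18) in Control, 0.16 (SE 0.16) in FoxK1 KD, -0.30 (SE 0.17) in FoxK2 KD and -0.33 (SE 0.18) in DKD cells, none of which passed (edgeR adjusted p from 0.159 to 0.475). Control basal replicate 1 had the highest Dusp1 of all samples, 37.4 CPM against 19.0 to 24.8 in the other 3 of its group. Without it the change with insulin in Control cells was -0.13 (SE 0.16, edgeR adjusted p = 0.594).

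Dusp6, the cytoplasmic phosphatase specific for ERK, lies on chromosome 10 (99263231 to 99267489, plus strand; ENSMUSG00000019960.7). Control cells had 154.8, 169.8, 164.5 and 160.4 CPM at basal and 201.5, 214.0 and 177.6 CPM after insulin. The insulin samples were all above the basal ones, by a log2 fold change of 0.28 (SE 0.08, edgeR adjusted p = 0.0074). Without Control insulin replicate 2 it was 0.24 (adjusted p = 0.056), and the call was also lost with the loosest filter and with the Control groups fitted alone (adjusted p = 0.069 and 0.11). In the knockdowns the log2 fold changes with insulin were small, 0.07 (SE 0.08), 0.05 (SE 0.07) and 0.05 (SE 0.08) in FoxK1 KD, FoxK2 KD and DKD cells, and did not pass (adjusted p from 0.531 to 0.705). Their basal samples covered 163.6 to 203.1 CPM and their insulin samples 170.6 to 204.0 CPM. Across the 8 group means Dusp6 varied by only 1.22 times, less than any other member.

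Dusp7, a cytoplasmic phosphatase that prefers ERK, lies on chromosome 9 (106368632 to 106375724, plus strand; ENSMUSG00000053716.9). In FoxK1 KD cells it went from 33.9, 26.4, 34.8 and 35.1 CPM to 45.8, 48.5, 44.9 and 41.2 CPM, without overlap. In DKD cells it went from 42.5, 53.2, 49.1 and 44.7 CPM to 41.0, 34.8 and 32.1 CPM, also without overlap. Dusp7 thus rose in FoxK1 KD cells by a log2 fold change of 0.46 (SE 0.13, edgeR adjusted p = 0.0069) and fell in DKD cells by one of -0.39 (SE 0.14, adjusted p = 0.046). The difference between these 2 responses was not tested. Control cells, with -0.03 (SE 0.14), and FoxK2 KD cells, with 0.09 (SE 0.13), did not pass (adjusted p = 0.897 and 0.62). With GC content and length taken out the change in FoxK1 KD cells was 0.27 (adjusted p = 0.163). The call in DKD cells was lost without DKD basal replicate 2, 3 or 4 or DKD insulin replicate 2 or 3 (adjusted p from 0.055 to 0.209) and in 3 of 7 other fits (0.059 to 0.122).

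Spry4, a Sprouty protein that restrains growth factor receptors upstream of RAF, lies on chromosome 18 (38586247 to 38601415, minus strand; ENSMUSG00000024427.6). Control cells had 1.42, 0.75, 0 and 1.43 CPM at basal and 2.64, 2.53 and 3.46 CPM after insulin. In reads these were 5, 3, 0 and 8 against 10, 8 and 11, so that counting error was large. FoxK1 KD cells had 1.81, 0.66, 0.941 and 0.535 CPM at basal and 2.96, 2.24, 2.54 and 2.23 CPM after insulin. In both genotypes all insulin samples were above the basal ones. FoxK2 KD cells had 0.309, 0.706, 1.08 and 1.54 CPM at basal and 2.65, 2.75, 3.34 and 1.26 CPM after insulin. DKD cells had 2.58, 0.873, 0.925 and 1.28 CPM at basal and 2.20, 1.16 and 1.77 CPM after insulin. In FoxK2 KD and DKD cells the samples overlapped. The log2 fold changes were 1.59 (SE 0.47), 1.24 (SE 0.48), 1.37 (SE 0.45) and 0.28 (SE 0.50) in the order of these values. Without Control insulin replicate 3 the Control value was 1.45. No p-value is given for these changes, as Spry4 was tested only because it was high after insulin.

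Spry1 and Spry2, the other Sprouty members, lie on chromosome 3 (37639947 to 37644598, plus strand; ENSMUSG00000037211.12) and chromosome 14 (105891947 to 105896819, minus strand; ENSMUSG00000022114.4). Spry1 rose with insulin in FoxK1 KD cells, from 18.6, 22.1, 22.1 and 23.0 CPM to 27.0, 31.7, 29.2 and 24.9 CPM. All insulin samples were above the basal ones, with a log2 fold change of 0.40 (SE 0.13, edgeR adjusted p = 0.022). Without FoxK1 KD basal replicate 1 or insulin replicate 2 it was 0.33 (adjusted p = 0.082 and 0.096), and with the loosest filter and with GC content and length taken out it was 0.37 and 0.20 (adjusted p = 0.088 and 0.245). In the other genotypes Spry1 changed by 0.03 to 0.12 on the log2 scale, without passing. Spry2 passed in no genotype, with log2 fold changes from -0.13 (SE 0.19) in DKD to 0.18 (SE 0.19) in FoxK1 KD cells. Its group means, from 9.91 ± 1.29 CPM (SD, n = 4) in FoxK2 KD basal to 12.4 ± 2.29 (n = 3) in Control insulin cells, all overlapped the next in order.

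Spred2, a membrane adaptor that inhibits activation of RAF by RAS, lies on chromosome 11 (19924375 to 20024026, plus strand; ENSMUSG00000045671.17). In Control cells it was at 19.3, 26.5, 23.1 and 26.6 CPM at basal and at 33.2, 33.5 and 35.5 CPM after insulin. In FoxK2 KD cells it was at 27.8, 29.2, 23.6 and 27.9 CPM at basal and at 37.3, 32.5, 31.3 and 34.3 CPM after insulin. In both, the insulin samples lay above all basal ones. FoxK1 KD cells had 23.1, 26.7, 25.2 and 25.7 CPM at basal and 25.1, 28.4, 24.1 and 18.6 CPM after insulin. DKD cells had 28.7, 30.8, 22.2 and 29.0 CPM at basal and 20.5, 30.6 and 26.3 CPM after insulin. Here the samples overlapped. Spred2 rose by a log2 fold change of 0.50 (SE 0.13, edgeR adjusted p = 0.0053) in Control and 0.33 (SE 0.12, adjusted p = 0.043) in FoxK2 KD cells, against -0.06 (SE 0.14, adjusted p = 0.767) in FoxK1 KD and -0.14 (SE 0.14, adjusted p = 0.543) in DKD cells. The Control call stood without any 1 library and was lost only with the Control groups fitted alone (adjusted p = 0.051). The FoxK2 KD call was lost without any 1 of 6 libraries, all but FoxK2 KD basal replicate 2 and insulin replicate 3 (adjusted p from 0.055 to 0.149), and in 3 of 7 other fits (0.052 to 0.131).

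Spred1, the third most abundant member and a partner of neurofibromin, lies on chromosome 2 (117121374 to 117182279, plus strand; ENSMUSG00000027351.14). Control cells had 76.8, 107.3, 106.2 and 117.9 CPM at basal and 144.0, 94.2 and 161.0 CPM after insulin. The samples overlapped through Control insulin replicate 2. The log2 fold change of 0.38 (SE 0.15) missed the threshold (edgeR adjusted p = 0.06). It was 0.58 (adjusted p = 0.0048) without that library and 0.46 (adjusted p = 0.035) without Control basal replicate 4. With the loosest filter, a replicate block, or GC content and length taken out it also passed (0.0063 to 0.036). In FoxK1 KD, FoxK2 KD and DKD cells it was 0.02 (SE 0.14), -0.09 (SE 0.14) and 0.15 (SE 0.15), none of which passed (adjusted p from 0.543 to 0.942).

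In counts without Spry4, insulin raised 2 and lowered 1 of the 9 in FoxK1 KD cells, where 16.2% of all genes rose and 15.4% fell. It raised 1 and lowered 1 in FoxK2 KD cells, against 14.4% and 13.7% of all genes. In DKD cells it raised 0 and lowered 2, against 8.31% and 7.99%. The median log2 fold change of the 9 was 0.16, 0.05 and -0.14 in FoxK1 KD, FoxK2 KD and DKD cells, and that of all genes at most 0.01 in each. In DKD cells 2 members had an unadjusted p below 0.05, both lower after insulin, and DESeq2 and limma-voom also called 2 each. The plot of insulin responses sets the 4 genotypes side by side.

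**Figure D2:**
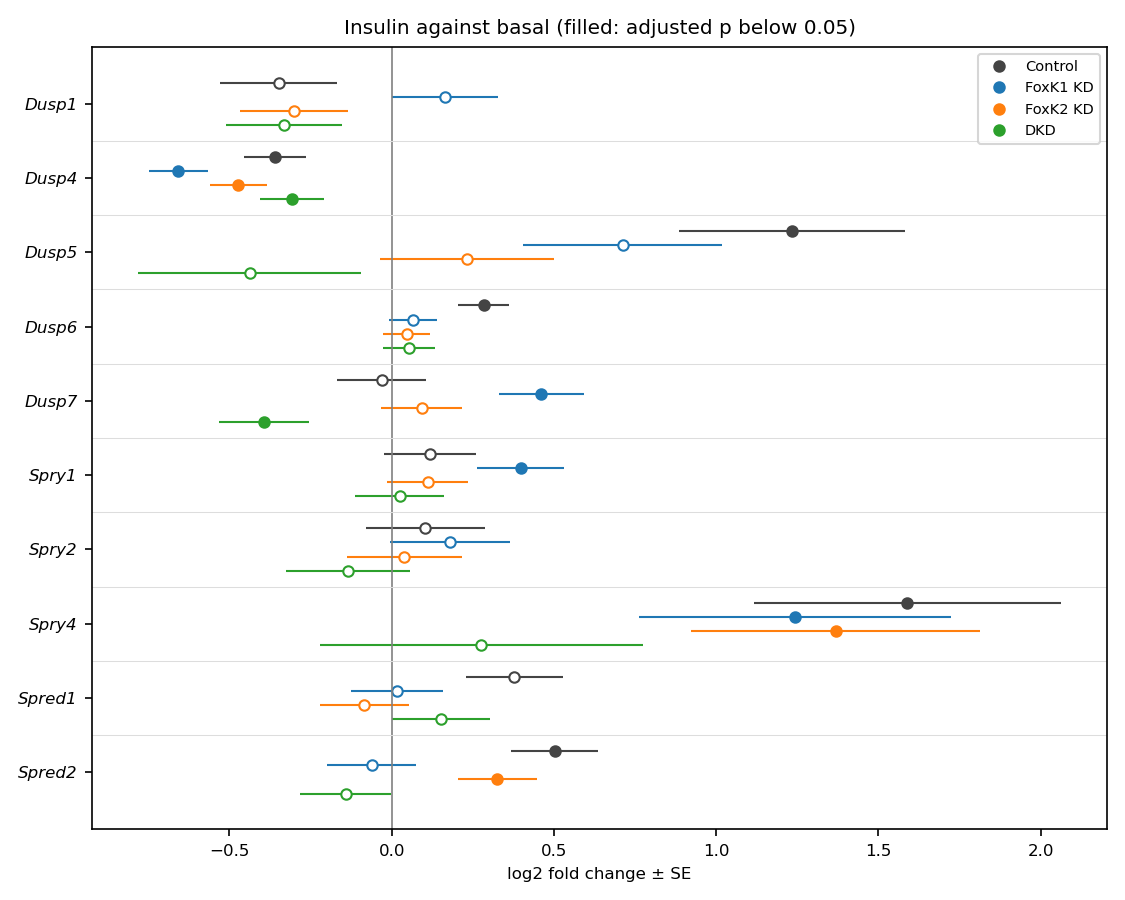
Log2 fold change with insulin (horizontal axis, ± SE) of each of the 10 transcripts in each genotype, with filled circles for an edgeR adjusted p below 0.05. Dusp4 is below 0 and filled in all 4 genotypes, from -0.66 to -0.31, whereas no filled circle of DKD cells is above 0. The filled circles of Spry4 are not read as calls, as it was tested only because it was high after insulin.

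Whether the responses differed between genotypes was tested by the interaction of genotype and insulin. None of the 10 passed in DKD, FoxK1 KD or FoxK2 KD cells against Control with edgeR's quasi-likelihood test, DESeq2 or limma-voom. For Spry4 this is not read as a result, as it was tested only because it was high after insulin. At an unadjusted p below 0.05 there were 3 members in DKD, 4 in FoxK1 KD and 3 in FoxK2 KD cells by edgeR, 3, 5 and 3 by DESeq2 (which gave 7 members no adjusted p in FoxK1 KD cells) and 3, 3 and 3 by limma-voom. Of all genes, 1% had a higher and 0.537% a lower insulin response in DKD than in Control cells, and 0% passed in either direction for FoxK1 KD and FoxK2 KD cells. The 3 differences share the Control samples.

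In DKD minus Control, Dusp5 had the largest difference, -1.67 (SE 0.49, 95% interval -2.66 to -0.68, edgeR adjusted p = 0.0705). It kept a value between -1.91 and -1.39 under all other fits and without any 1 library, with adjusted p from 0.053 to 0.191. Spred2 followed with -0.64 (SE 0.19, interval -1.04 to -0.25, adjusted p = 0.0812), and -0.77 to -0.51 elsewhere (adjusted p from 0.0597 to 0.24). At the threshold of 0.25 that the study used, with a fold change above 1.5, these 2 would pass and no other member would. Without Control basal replicate 1 they were -1.73 (adjusted p = 0.053) and -0.57 (adjusted p = 0.0813). Dusp6 gave -0.23 (interval -0.46 to -0.002, edgeR adjusted p = 0.338) and Dusp7 -0.36 (interval -0.76 to 0.03, adjusted p = 0.393). Spry4 gave -1.31 (SE 0.69), given as a value only, as it was tested only because it was high after insulin. For Dusp4 the difference was 0.05 with an interval of -0.22 to 0.33 (adjusted p = 0.913), and for Dusp1 0.02 with an interval of -0.50 to 0.53 (adjusted p = 0.987), or -0.20 (adjusted p = 0.688) without Control basal replicate 1.

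In FoxK1 KD minus Control, the differences with an unadjusted p below 0.05 were Spred2 at -0.56 (SE 0.19, edgeR adjusted p = 0.226), Dusp7 at 0.49 (SE 0.19, adjusted p = 0.276), Dusp4 at -0.30 (SE 0.13, adjusted p = 0.331) and Dusp1 at 0.51 (SE 0.24, adjusted p = 0.359). Without Control basal replicate 1 the Dusp1 difference was 0.29 (SE 0.21, adjusted p = 0.7). The Dusp7 difference ran from 0.27 to 0.63 under the other fits and without any 1 library. In FoxK2 KD minus Control they were Dusp5 at -1.003 (SE 0.44), Spred1 at -0.46 (SE 0.20) and Dusp6 at -0.24 (SE 0.11), each with an adjusted p of 0.883. Dusp6, Spred1, Spred2 and Dusp5 had estimates below 0 in all 3 knockdowns, none of which passed, and all 3 rest on the same Control samples. Spry4 is left out here, as it was tested only because it was high after insulin.

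**Figure D3:**
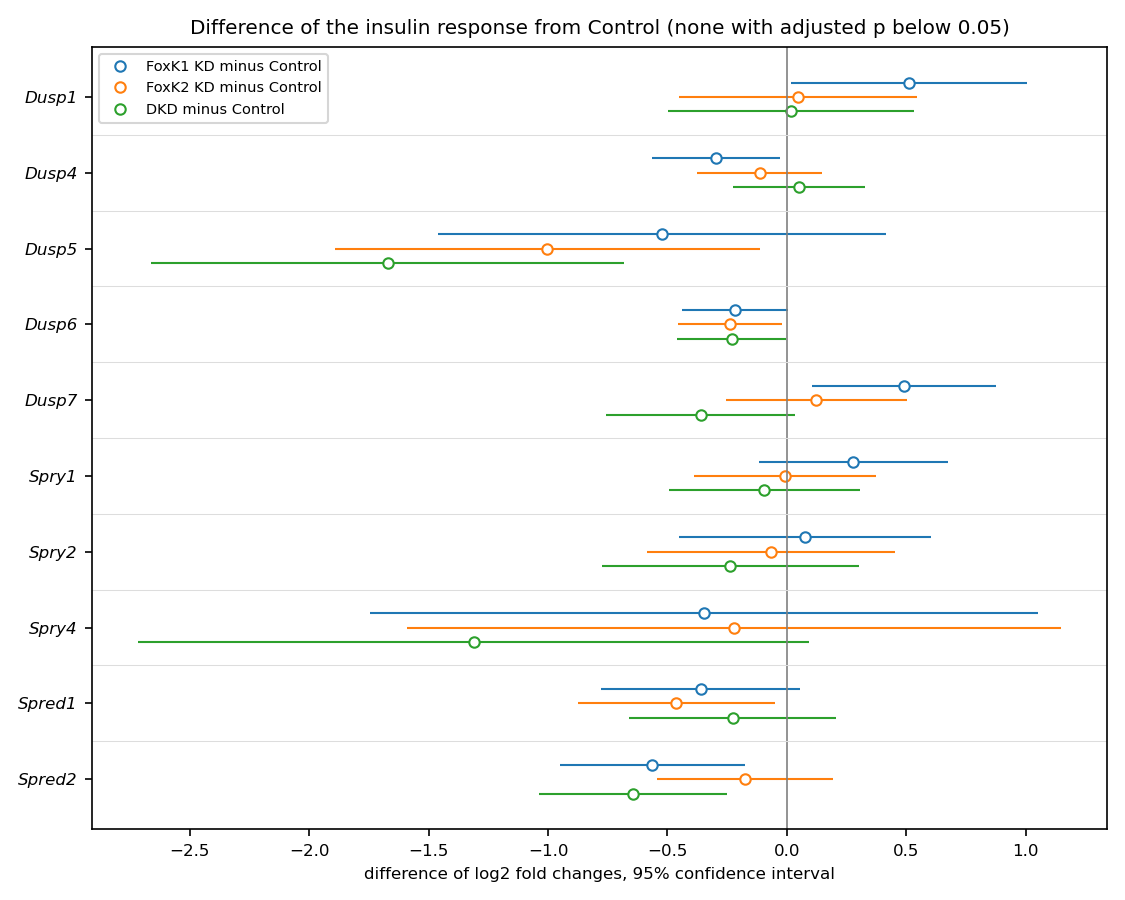
Difference of the insulin response from that of Control cells (horizontal axis, difference of log2 fold changes with its 95% confidence interval) for each of the 10 transcripts in FoxK1 KD, FoxK2 KD and DKD cells. All circles are open, as none passed an adjusted p below 0.05, and the DKD intervals of Dusp5 (-2.66 to -0.68) and Spred2 (-1.04 to -0.25) lie wholly below 0. The intervals of Spry4 are not read, as it was tested only because it was high after insulin.

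At basal, 4 of the 10 differed between DKD and Control cells, a comparison that cannot be told apart from the split of the samples given above. Dusp5, Dusp6 and Dusp7 were higher in DKD cells and Dusp4 was lower, where 10.3% of all genes were higher and 10.8% lower. The median log2 fold change of the 10 was 0.22, and 9 of the 10 had an estimate above 0. The median over all genes was 0.00. Without Control basal replicate 1 there were 3 calls, 2 higher and 1 lower.

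Dusp5 averaged 3.71 ± 0.843 CPM (SD, n = 4) in DKD and 1.70 ± 0.818 CPM (n = 4) in Control basal cells, with all DKD samples above all Control samples. The log2 fold change was 1.05 (SE 0.34, edgeR adjusted p = 0.023). Without Control basal replicate 3, whose 2 reads were the fewest of any sample, it was 0.76. Without that library or DKD basal replicate 2, 3 or 4 the call was lost (adjusted p from 0.055 to 0.099), and in 3 of 6 other fits it was too (0.055 to 0.083). Dusp6 averaged 186.9 ± 14.9 CPM against 162.4 ± 6.34 CPM (SD, n = 4 each), without overlap, a log2 fold change of 0.20 (SE 0.07, adjusted p = 0.047). Its call was lost without any 1 of 6 libraries, all but Control basal replicate 2 and DKD basal replicate 2 (0.053 to 0.17), and in 4 of 7 other fits (0.059 to 0.318).

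Dusp7 averaged 47.4 ± 4.77 CPM against 36.8 ± 4.76 CPM (SD, n = 4 each), again without overlap, a log2 fold change of 0.36 (SE 0.13, edgeR adjusted p = 0.037). The call was lost without Control basal replicate 1 or 4 or DKD basal replicate 2 or 3 (0.062 to 0.161) and in 3 of 7 other fits (0.073 to 0.43). Dusp4 averaged 105.0 ± 7.21 CPM against 128.2 ± 18.7 CPM (SD, n = 4 each), with overlap, a log2 fold change of -0.29 (SE 0.09, adjusted p = 0.015). Without Control basal replicate 4 it was -0.19 (adjusted p = 0.118), and with these groups fitted alone it did not pass (adjusted p = 0.107). Spry1, at 27.0 ± 1.68 CPM in DKD and 21.3 ± 2.90 CPM in Control cells (SD, n = 4 each) without overlap, just missed the threshold at 0.34 (SE 0.13, adjusted p = 0.0558). It was 0.41 (adjusted p = 0.023) without Control basal replicate 1 and 0.35 (adjusted p = 0.048) with the strictest filter.

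GC content moved with this and with other comparisons. Across genes, the Spearman correlation of a gene's GC content with its log2 fold change was 0.48 in DKD against Control at basal, and -0.31 in the DKD difference of insulin responses. It was 0.34 both for insulin in FoxK1 KD cells and for the FoxK1 KD difference, and 0.25 for both in FoxK2 KD cells. Dusp5, Dusp7, Spry1 and Dusp4, at 56.0% to 56.7% GC, are the richest of the 10, and Spred1 the poorest at 41.5%. With GC content and length taken out, the basal log2 fold change was 0.85 for Dusp5, 0.17 for Dusp7, 0.16 for Spry1, -0.48 for Dusp4 and 0.43 for Spred1 (edgeR adjusted p of 0.083, 0.43, 0.408, 0.0016 and 0.0068). The estimate for Dusp6, at 48.9% GC, was 0.20 (adjusted p = 0.064), the same as in the main fit. Of the 4 calls only that of Dusp4 stood in this fit, Spred1 was added, and the insulin difference of Dusp5 was -1.58 (adjusted p = 0.0972).

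In the single knockdowns none of the 10 passed at basal. In FoxK1 KD cells 3.39% of all genes were higher and 4.71% lower than in Control, and in FoxK2 KD cells 0.211% and 0.167%. With edgeR, 2 members had an unadjusted p below 0.05 in FoxK1 KD and 4 in FoxK2 KD cells, and DESeq2 gave 1 and 3 and limma-voom 2 and 3, none with an adjusted p below 0.05. DESeq2 gave no adjusted p to 2 and 3 members. The largest estimates were for Dusp5, 0.73 (SE 0.34, adjusted p = 0.183) in FoxK1 KD and 1.17 (SE 0.32, adjusted p = 0.0878) in FoxK2 KD cells. In FoxK2 KD cells all 4 Dusp5 samples were above the Control samples, as were those of Spred1 at 0.49 (SE 0.14, adjusted p = 0.105) and Dusp6 at 0.18 (SE 0.07, adjusted p = 0.328). Without Control basal replicate 4, Dusp5 at 1.40 and Spred1 at 0.57 passed (adjusted p = 0.0485 and 0.05). Spred1 also passed in FoxK2 KD cells with the loosest filter and with GC content and length taken out (adjusted p = 0.0003 and 0.027). In FoxK1 KD cells Spred1, at 0.31 (SE 0.14, adjusted p = 0.162), passed with the loosest filter (adjusted p = 0.049). The Control basal group had the lowest mean of all 8 groups for Dusp5, Dusp6, Spry1, Spry4, Spred1 and Spred2, and these comparisons share its 4 samples with the insulin response of Control cells.

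**Figure D4:**
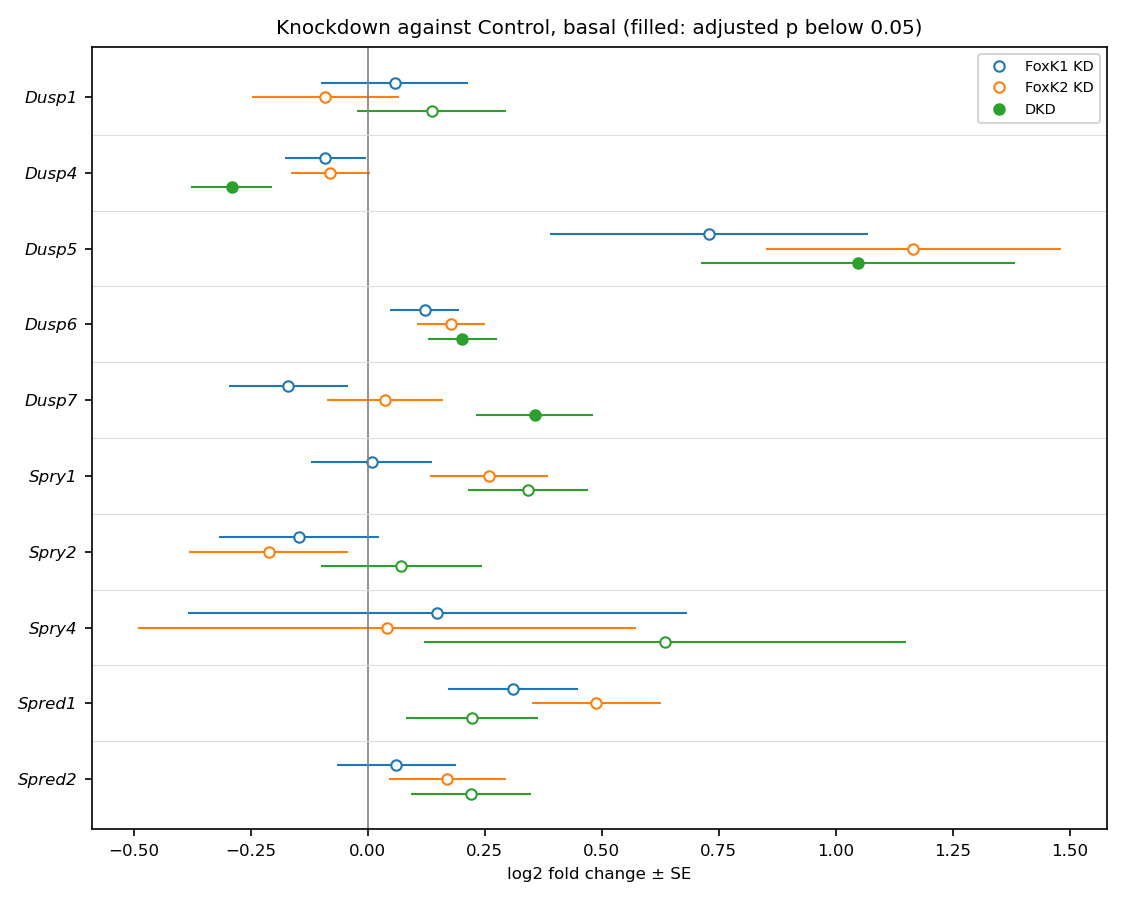
Log2 fold change against Control at basal (horizontal axis, ± SE) of each of the 10 transcripts in FoxK1 KD, FoxK2 KD and DKD cells, with filled circles for an edgeR adjusted p below 0.05. Filled circles occur only for DKD cells, at 1.05 (Dusp5), 0.20 (Dusp6), 0.36 (Dusp7) and -0.29 (Dusp4).

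After insulin, members passed against Control only in FoxK1 KD cells. FoxK1 KD cells had less Dusp4 and Spred2 than Control cells, 2 of the 10, where 1.86% of all genes were higher and 1.72% lower. Dusp4 averaged 76.6 ± 6.78 CPM (SD, n = 4) against 100.3 ± 3.97 CPM (n = 3), with all samples below Control, a log2 fold change of -0.39 (SE 0.10, edgeR adjusted p = 0.022). Spred2 averaged 24.1 ± 4.08 CPM against 34.1 ± 1.26 CPM, also without overlap, with -0.50 (SE 0.14, adjusted p = 0.04). The Dusp4 call was lost without Control insulin replicate 1 or 2 or FoxK1 KD insulin replicate 4 (adjusted p from 0.061 to 0.101), and the Spred2 call without any 1 of 6 libraries, all but FoxK1 KD insulin replicate 2 (0.058 to 0.167), or with these groups fitted alone (0.068). Dusp1 was above Control in all 4 samples at 0.57 (SE 0.19, adjusted p = 0.0843), and passed with these groups fitted alone (0.043).

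In DKD cells after insulin none of the 10 differed from Control (edgeR), where 0.871% of all genes were higher and 0.343% lower. At an unadjusted p below 0.05 there were 2, Spred2 at -0.42 (SE 0.15, adjusted p = 0.167) and Dusp4 at -0.24 (SE 0.10, adjusted p = 0.307), both with all DKD samples below Control, and DESeq2 and limma-voom called 0 with 2 each at an unadjusted p below 0.05. In FoxK2 KD cells none differed in edgeR, DESeq2 or limma-voom, 0 also at an unadjusted p below 0.05 in each, where 0.0088% of all genes were higher and 0.0176% lower. Dusp5, at 2.67 ± 0.219 CPM (SD, n = 3) in DKD and 4.14 ± 1.27 CPM (n = 3) in Control cells, differed by -0.62 with an interval of -1.34 to 0.10 (adjusted p = 0.477).

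Further genes of the pathway are set against all tested genes, of which insulin in Control cells raised 12.4% and lowered 13.1%. Of 4 tested further MAP kinase phosphatases, insulin in Control cells raised 1, Dusp8, a phosphatase of JNK and p38 (0.89, SE 0.21, edgeR adjusted p = 0.0021), and Dusp16, Dusp9 and Dusp10 did not pass. Of 7 tested further feedback inhibitors it raised Lrig1 (0.39, SE 0.09, adjusted p = 0.0015), a transmembrane inhibitor of the EGF receptor, and lowered Rasa1 (-0.42, SE 0.09, adjusted p = 0.0011), a GTPase-activating protein of RAS. Of 20 components of the RAS-ERK cascade 4 rose and 3 fell. The latter were Mapk3, which encodes ERK1 (-0.74, SE 0.12, adjusted p = 1.01e-05), and the adaptors Gab1 (-0.72, SE 0.12) and Frs2 (-0.38, SE 0.12), and Hras was among those that rose (0.43, SE 0.14, adjusted p = 0.0226).

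Receptors upstream of ERK were lowered by insulin in Control cells, 5 of 9 tested, with none raised and a median log2 fold change of -0.40. Among them were Igf1r (-0.71, SE 0.09), Insr (-0.52, SE 0.11), Egfr (-0.40, SE 0.09) and Fgfr3 (-0.65, SE 0.16), the receptors for IGF1, insulin, EGF and FGF. In FoxK1 KD and FoxK2 KD cells 5 were also lowered and 1 raised in each, and in DKD cells 2 were lowered and 0 raised. Of 13 tested transcripts known to respond to ERK, insulin raised 4 and lowered 4 in Control cells. Etv4, an ETS factor (1.40, SE 0.22), and Ccnd1, cyclin D1 (0.54, SE 0.08), rose, and the early response factor Egr1 (-1.13, SE 0.21) and the survival factor Mcl1 (-0.47, SE 0.09) fell. In DKD cells 0 rose and 3 fell. Insulin in DKD cells changed 0 of the 7 other feedback inhibitors, lowered 1 of the 4 phosphatases, and raised 2 and lowered 2 of the 20 cascade components. Of all genes, insulin raised 16.2% and lowered 15.4% in FoxK1 KD, 14.4% and 13.7% in FoxK2 KD, and 8.31% and 7.99% in DKD cells.

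In these lists 2 genes passed the interaction of DKD and insulin that no member passed. Of all genes, 1% passed it with a higher and 0.537% with a lower response in DKD cells. Ccnd1 averaged 414.2 ± 55.5 CPM (SD, n = 4) at basal and 602.8 ± 24.3 CPM (n = 3) after insulin in Control cells, and 692.6 ± 41.6 CPM (n = 4) and 649.4 ± 41.5 CPM (n = 3) in DKD cells. Its insulin response was lower in DKD than in Control cells by a log2 difference of -0.63 (SE 0.12, edgeR adjusted p = 0.0021), after a higher basal level of 0.74 (SE 0.08, adjusted p = 1.82e-08). Rasa1 went from 151.5 ± 7.21 CPM to 113.6 ± 14.8 CPM in Control and from 107.7 ± 6.72 CPM to 124.4 ± 5.98 CPM in DKD cells. Its response was higher in DKD than in Control cells by 0.63 (SE 0.13, adjusted p = 0.011).

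The 10 did not move as a block across the 30 samples. Over their 45 pairs, the Pearson correlation of log2 CPM had a median of 0.05, with 2 pairs above 0.5 and 3 below -0.5. The highest were Dusp5 with Spry4 (0.53) and Dusp5 with Spry1 (0.51), and the lowest Dusp1 with Spred2 (-0.65), Dusp4 with Spry4 (-0.61) and Dusp4 with Spry1 (-0.56). These are descriptions over samples that share groups and library depth. The pairs with Spry4 also carry its selection, as it was tested only because it was high after insulin. The transcripts most like Dusp6 over the 30 samples, among 11269 compared, were Sh3bgrl2 (0.74), Atp10a (0.72) and Impdh2 (0.71).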

How the data were processed

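RNA-seq was analysed in 30 AML12 samples in 8 groups (3 or 4 per group), grouped by their labels. The authors deposited raw counts of reads per Ensembl gene and sample, without normalization. The submitters' processing notes name CASAVA 1.8, STAR 2.4.2a, featureCounts and the build GRCm38.p4. The strand setting and annotation release are not given in the sources used here. Symbols were taken from GENCODE M21 (GRCm38) for 48435 of 49089 identifiers without version, 41427 of them with the same version.

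Members, lists and tests were chosen with earlier results of these data known. Counts were filtered with filterByExpr, which left 11368 genes, normalized by TMM and fitted as 8 groups in edgeR 4.0.16 (glmQLFit, glmQLFTest; R 4.3.3), with Benjamini-Hochberg adjustment over all genes and a threshold of 0.05. CPM refer to TMM-normalized library sizes. Standard errors are the log2 fold change over the root of F, and intervals are 95%. There were 13 comparisons: each knockdown against Control at basal and after insulin, insulin in each genotype, and 3 differences of insulin responses. Named by rule were the 10 members in all of these, Foxk1 and Foxk2, from each list of other genes up to 4 with the smallest p for insulin in Control cells and any called in the DKD interaction, and the 3 genes most correlated with Dusp6. Alternatives were DESeq2 1.42.0, limma-voom 3.58.1, at least 10 counts in every sample, at least 1 count in any sample (the loosest filter), only the groups compared, a replicate block, trends in GC content and exon length taken out, a threshold of 0.25 alone or with a 1.5-fold change, and each library left out. Scripts were tested on simulated data. Totals of 2141460 to 5668270 reads limit the precision of Dusp5 and Spry4.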

Additional observations from a re-analysis of the deposited data

Results flagged for a closer look

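In 60 combinations of a member with a group of 4 samples, 3 held a sample far from the other 3 by Dixon's criterion, as many as chance gives, about 1 in 20. Spry2 in Control basal replicate 1 was 14.5 CPM, where the nearest of the others had 10.7 CPM. Spry2 in FoxK1 KD basal replicate 2 was 14.2 CPM, the nearest 9.63 CPM. Dusp7 in FoxK1 KD basal replicate 2 was 26.4 CPM, the nearest 33.9 CPM. Control basal replicate 1 is also the sample that stood apart over all genes. No difference in insulin response between genotypes passed for any of the 10.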

How the results depend on the processing

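Counts of members called, out of 10 and here with Spry4, were recomputed under 9 alternatives and without each library in turn. Those for insulin thus include a gene tested only because it was high after insulin. With at least 1 count in any sample they were 1 in FoxK1 KD basal, 1 in FoxK2 KD basal, 1 in DKD basal, 2 for insulin in FoxK1 KD and 0 for insulin in DKD cells. With GC content and length taken out they were 1 in FoxK2 KD basal, 2 in DKD basal, 1 for insulin in FoxK1 KD and 0 for insulin in DKD cells. Fitting only the groups compared, which takes the spread from those groups alone, left 0 for DKD basal and 0 for insulin in Control cells. At least 10 counts in every sample, which drops Dusp5 and Spry4, left 3 for insulin in Control cells. At an adjusted p below 0.25 counts were 2 in FoxK1 KD basal, 2 in FoxK2 KD basal, 1 and 2 for the FoxK1 KD and DKD differences of insulin response, and 4 and 1 for FoxK1 KD and DKD cells after insulin. With a 1.5-fold change added they were 1, 1 and 1 in FoxK1 KD, FoxK2 KD and DKD basal, 2, 1 and 0 for insulin in Control, FoxK2 KD and DKD cells, 2 for the DKD difference and 0 in FoxK1 KD cells after insulin. The cause of these changes was not tested.

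Leaving out a library gave 0 to 2 calls in FoxK2 KD basal, 1 to 4 in DKD basal, 4 to 6 for insulin in Control, 3 to 3 in FoxK1 KD, 1 to 2 in FoxK2 KD and 0 to 1 in DKD cells, and 0 to 2 in FoxK1 KD cells after insulin. In the replicate block fit the calls for insulin in DKD cells went from 2 to 0 and the other counts stayed within 1.5 times. Replicate numbers did not pair the samples: same-numbered samples of different groups had a mean correlation of -0.01 over 99 pairs, and 3 of 30 samples correlated best with their own number. Of 2310 log2 fold changes of a member under an alternative, 100 lost and 37 gained a call and none that was called changed sign. Depth limits Dusp5 and Spry4, with at most 25 and 12 reads per sample.

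Counts over all genes also moved. Fitting only the groups compared took them from 920 to 46 in FoxK1 KD basal, 43 to 1 in FoxK2 KD basal, 2398 to 1299 in DKD basal, 2890 to 1085 for insulin in Control cells, 175 to 32 for the DKD difference and 138 to 40 in DKD cells after insulin. In FoxK1 KD cells after insulin they went from 408 to 318. For insulin in FoxK1 KD, FoxK2 KD and DKD cells, which involve no Control group, they rose from 3588 to 3869, 3193 to 3733 and 1853 to 2359. FoxK2 KD basal had 83 with DESeq2, 117 with GC content and length taken out and 238 with the loosest filter. FoxK2 KD after insulin went from 3 to 10 and 14 with DESeq2 and the loosest filter, and the FoxK1 KD difference from 0 to 24 and 174. The loosest filter gave 31 for the FoxK2 KD difference and 359 for the DKD difference.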
